A study of Mus musculus with 8 samples.

Results

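The p53 response genes examined here are a fixed list of 31 mouse genes, made up of *Trp53*, the regulators of its protein and its transcriptional targets. All 31 were found by symbol among the 21951 protein-coding genes of GENCODE M21 on the mm10 build. For each gene, every DNA-RNA immunoprecipitation (DRIP) peak that overlapped the gene body, or the 1 kb to either side of it, by at least 1 bp was taken, with no limit on its score. The rule uses no measured value of the genes.

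p53 is a transcription factor that is held at a low level by the ubiquitin ligase Mdm2 and its relative Mdm4, and it accumulates when DNA is damaged or replication is stressed. It binds a paired palindromic site near its target genes, which arrest the cell cycle, trigger cell death, supply DNA repair, or feed back on p53 itself. An R-loop forms where newly made RNA pairs with its DNA template and leaves the other DNA strand unpaired, and the helicase RTEL1 and the nuclease RNaseH1 both act against such hybrids. The S9.6 antibody used in DRIP binds the RNA:DNA hybrid, so a DRIP peak marks DNA that was recovered with such hybrids, without strand and without a measure of mRNA.

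DRIP-seq was performed in mouse embryonic fibroblasts (MEFs) described as Rtel1F/F;WT RNH1-GFP. These cells carry floxed *Rtel1* alleles and a doxycycline-inducible lentiviral construct for human wild-type RNaseH1 fused to GFP, and both features were shared by every group. Adenovirus expressing GFP left *Rtel1* intact, and adenovirus expressing Cre together with GFP deleted it. After 48 h of virus, cells received doxycycline at 2 µg/ml for 48 h (DOX) or none (mock), which gave 4 groups, GFP mock and GFP DOX, then Cre mock and Cre DOX. Where 4 values are given in a row below, they follow this order. Each group had 1 DRIP library, made from 3 pooled immunoprecipitations, and 1 peak list, while the 4 input libraries were not analysed here. With 1 library per group there was no replicate error and no test between groups, so every difference between lists below compares 4 libraries and not the conditions. Whether p53 is functional in this line is not given in the sources used here, and the doxycycline treatment, the RNaseH1 expression and any effect of the adenovirus cannot be told apart from the library that carries them.

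The lists held 87613 peaks in GFP mock and 60219 in GFP DOX, and 91097 in Cre mock and 105081 in Cre DOX, and covered 36.2, 32.1, 47.6 and 89.0 Mb. Read numbers per library are not part of the lists, so sequencing depth is unknown. Peaks carry a score that equals −log10 of the q-value multiplied by 10, without its decimals, at 99.9962% of all peaks. The top decile of a list began at scores of 33 and 28 in the GFP lists (mock, DOX) and of 33 and 31 in the Cre lists. As a check of the cell type, 5, 4, 4 and 4 of 10 fibroblast genes had a promoter peak across the lists in the order given, against 3, 1, 4 and 0 of 11 marker genes of other cell types. In the extended bodies the counts were 6, 5, 6 and 6 of the 10 against 6, 5, 6 and 5 of the 11, so the peak lists alone do not set the labelled cell type apart.

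The stretches of these genes that lay under a peak in every list are shown first, because they hold the bases that the lists share, and are followed by the highest-scoring peaks, which are not in every list. Of the 31 genes, 7 (*Trp53*, *Mdm2*, *Bbc3*, *Sesn1*, *Phlda3*, *Tnfrsf10b* and *Cdkn2a*) had any base covered in all 4 lists, which is 22.6% against 15.6% of all protein-coding genes, in 16 stretches that added up to 9.91 kb of the 877 kb examined. Up to 300 bases from the longest such stretch of *Phlda3* (chr1:135765819-135766118, plus strand), *Bbc3* (chr7:16312463-16312762, plus strand), *Cdkn2a* (chr4:89295224-89295523, minus strand), *Trp53* (chr11:69583746-69584045, plus strand) and *Mdm2* (chr10:117710759-117710807, minus strand) are printed on the strand of the gene. They are followed by the part outside untranslated exon sequence of the highest-scoring Cre mock peak at these genes, at *Mdm4* (chr1:133025149-133025247, minus strand), and by the highest-scoring one of Cre DOX, at *Rrm2b* (chr15:37942852-37943132, minus strand). Capitals mark bases in predicted G-quadruplexes (G4s), four-stranded structures of guanine-rich DNA, found on either strand with G4Hunter in windows of 25 bases at an absolute score of at least 1.5.
Phlda3: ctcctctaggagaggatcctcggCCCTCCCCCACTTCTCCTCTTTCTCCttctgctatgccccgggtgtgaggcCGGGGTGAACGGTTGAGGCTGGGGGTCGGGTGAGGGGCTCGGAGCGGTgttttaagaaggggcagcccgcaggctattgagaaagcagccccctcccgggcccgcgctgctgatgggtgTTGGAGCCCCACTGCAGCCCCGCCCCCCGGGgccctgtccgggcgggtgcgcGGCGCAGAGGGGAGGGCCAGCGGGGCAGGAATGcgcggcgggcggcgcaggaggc
Bbc3: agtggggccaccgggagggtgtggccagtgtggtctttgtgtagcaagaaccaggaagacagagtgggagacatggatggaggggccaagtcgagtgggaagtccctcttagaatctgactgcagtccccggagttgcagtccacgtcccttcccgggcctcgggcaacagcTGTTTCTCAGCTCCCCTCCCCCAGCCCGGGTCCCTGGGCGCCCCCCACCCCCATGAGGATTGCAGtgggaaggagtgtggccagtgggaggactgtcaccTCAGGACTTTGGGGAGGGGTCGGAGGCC
Cdkn2a: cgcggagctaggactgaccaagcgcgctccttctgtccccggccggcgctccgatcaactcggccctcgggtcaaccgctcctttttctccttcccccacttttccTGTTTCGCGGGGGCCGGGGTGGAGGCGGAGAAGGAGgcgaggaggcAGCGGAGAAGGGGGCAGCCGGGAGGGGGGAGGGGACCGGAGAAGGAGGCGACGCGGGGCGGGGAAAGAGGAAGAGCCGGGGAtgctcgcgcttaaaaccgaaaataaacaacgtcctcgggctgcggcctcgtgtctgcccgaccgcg
Trp53: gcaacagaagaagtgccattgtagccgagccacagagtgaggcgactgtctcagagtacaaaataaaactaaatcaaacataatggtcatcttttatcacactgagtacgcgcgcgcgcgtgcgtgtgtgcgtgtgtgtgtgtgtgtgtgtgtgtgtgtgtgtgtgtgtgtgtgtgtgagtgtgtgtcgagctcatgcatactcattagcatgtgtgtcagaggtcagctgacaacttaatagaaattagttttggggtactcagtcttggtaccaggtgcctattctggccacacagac
Mdm2: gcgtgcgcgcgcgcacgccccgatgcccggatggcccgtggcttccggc
Mdm4: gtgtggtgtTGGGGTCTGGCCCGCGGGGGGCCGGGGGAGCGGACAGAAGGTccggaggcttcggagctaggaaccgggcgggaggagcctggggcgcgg
Rrm2b: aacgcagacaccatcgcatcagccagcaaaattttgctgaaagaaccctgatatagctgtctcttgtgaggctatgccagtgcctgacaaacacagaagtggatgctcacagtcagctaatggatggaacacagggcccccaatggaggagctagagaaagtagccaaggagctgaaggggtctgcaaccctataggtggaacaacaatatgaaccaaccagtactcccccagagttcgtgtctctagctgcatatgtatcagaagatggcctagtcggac

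The printed stretches differed in make-up. GC content was 71.7% in *Phlda3*, 64.0% in *Bbc3*, 68.0% in *Cdkn2a*, 81.6% in *Mdm2* and 75.8% in *Mdm4*, whereas it was 47.7% in *Trp53*, whose stretch runs through a long GT repeat, and 49.8% in *Rrm2b*. Predicted G4s took up 138 of 300 bases at *Phlda3*, 118 of 300 at *Cdkn2a*, 93 of 300 at *Bbc3* and 42 of 99 at *Mdm4*, and none of the bases shown for *Trp53*, *Mdm2* and *Rrm2b*. The *Rrm2b* stretch was 100% repeat-masked in the reference, and the part of reads from other copies of the repeat in its peak was not tested.

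The second set of sequences holds matches to the consensus p53 site, and p53 binding to them was not measured. The consensus p53 site of 20 bases, made of 2 copies of a 10-base motif with no spacer, was searched on both strands with at most 2 mismatches and none at the core cytosine and guanine of each copy. There were 19 matches in the extended bodies of 15 of the 31 genes, 2 of them without a mismatch. *Ccng1* held a match with 1 mismatch at −160 bp from a start site that is not printed. The printed matches at *Cdkn1a* (chr17:29090928-29090947), *Mdm2* (chr10:117699921-117699940) and *Ccng1* (chr11:40754936-40754955) had 1 mismatch each, and those at *Zmat3* (chr3:32364331-32364350) and *Apaf1* (chr10:91018666-91018685) had 0, with the core bases in capitals below.
Cdkn1a: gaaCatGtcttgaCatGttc
Mdm2: ggaCttGtccagcCaaGttt
Ccng1: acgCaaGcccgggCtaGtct
Zmat3: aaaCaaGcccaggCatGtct
Apaf1: agaCaaGcttgaaCttGctc

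None of the 19 matches lay under a peak of any list (0 of 19). Peaks of at least 1 list covered 73.8 kb, or 8.42%, of the examined sequence, and nothing on the binding of p53 was read from the count of 0. In the 2 kb around the 5′-most start site, 6 of the 31 genes (19.4%) held a match, against 1.80% of all protein-coding genes, and these were *Cdkn1a*, *Ccng1*, *Bax*, *Pmaip1*, *Eda2r* and *Ckap2*. At least 1 predicted G4 lay in that window in 30 of the 31 genes (96.8%), *Perp* being the exception, and in 84.1% of all protein-coding genes. Median GC content of the window was 53.4% in the 31 genes and 51.2% in all protein-coding genes.

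Of the 31 genes, 20 had a peak in the extended body in GFP mock and 18 in GFP DOX, and 22 in Cre mock and 21 in Cre DOX. These are 64.5% (95% exact Clopper-Pearson interval 45.4 to 80.8), 58.1% (39.1 to 75.5), 71.0% (52.0 to 85.8) and 67.7% (48.6 to 83.3) of the genes. Among all protein-coding genes the shares were 55.0%, 46.0%, 60.4% and 54.1% in the same order. With these peaks of any score, the share of the p53 response genes was the higher one in each library, whereas with the top decile it was the lower one in each. The interval, which covers counting error only, held the any-score share of all protein-coding genes in each library. With peaks of any score, Cre mock had the highest share and GFP DOX the lowest in both sets. A peak in all 4 lists was found at 12 genes, or 38.7%, against 33.5% of all protein-coding genes, and a peak in no list at 4 genes, or 12.9%, against 26.1%. The 4 without a peak were *Pmaip1*, *Perp*, *Eda2r* and *Ckap2*.

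**Figure D1:**
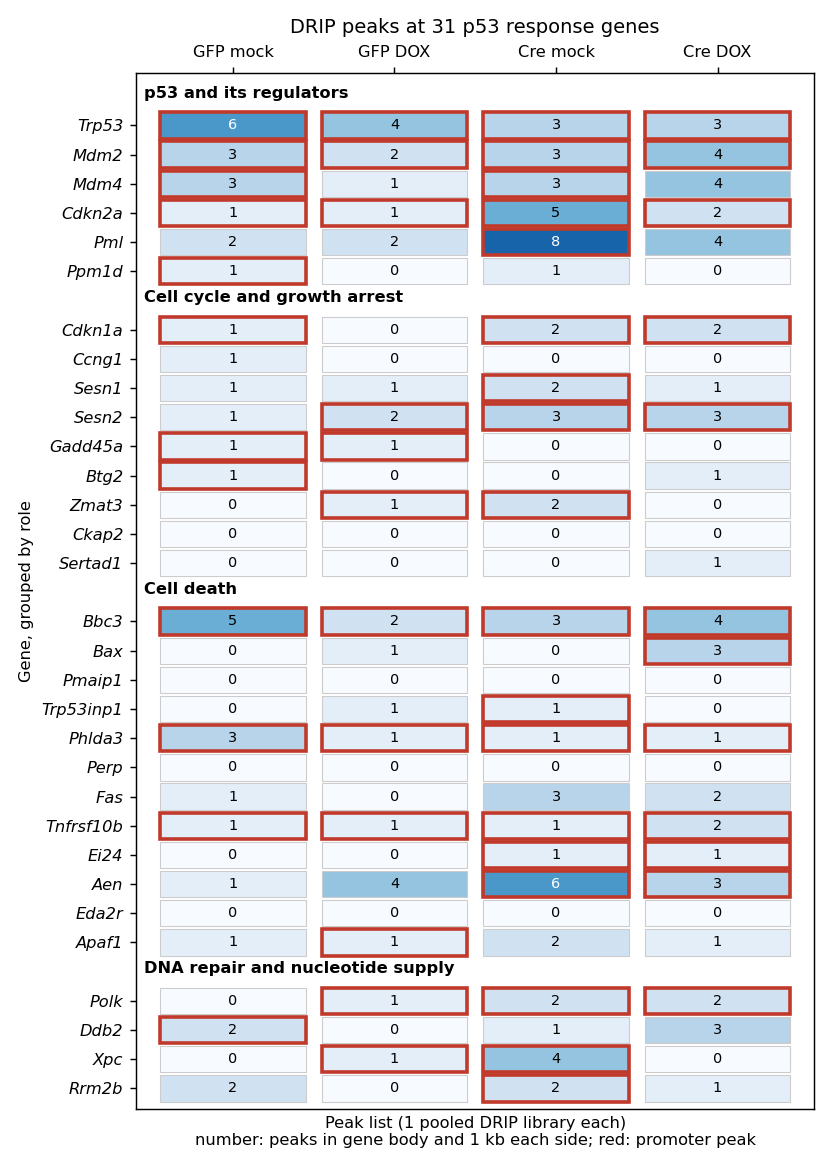
Number of DRIP peaks in the gene body and 1 kb to either side for each of the 31 p53 response genes (rows, grouped by role) in the 4 peak lists (columns), with a red frame where at least 1 peak lay within 1 kb of a start site. *Pml* had the highest number, 8 in Cre mock, and *Pmaip1*, *Perp*, *Eda2r* and *Ckap2* had 0 in every list.

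At promoters, defined as the 1 kb to either side of any annotated start site, the libraries separated more. A promoter peak was found at 12 of the 31 genes in GFP mock and 12 in GFP DOX, and 18 in Cre mock and 12 in Cre DOX, or 38.7%, 38.7%, 58.1% and 38.7% of the genes. The shares of all protein-coding genes were 30.8%, 25.8%, 36.7% and 27.6%. The interval was 21.8 to 57.8 for the 3 equal shares and 39.1 to 75.5 for Cre mock. These intervals do not compare libraries, since the same 31 genes were scored in each. The share of all protein-coding genes lay inside the interval in every list but Cre mock, where 36.7% was below it. Cre mock thus held the most promoter peaks both at these genes and genome-wide. It was also the highest of the 4 lists under each of the 10 other ways of choosing peaks or promoters that were tried. Of these, only the top decile of scores was given an interval. There the Cre mock share of 9.68% (2.04 to 25.8) was not set apart from the 6.70% of all protein-coding genes. Whether the Cre mock share exceeds the background under the other settings was not tested.

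Start sites are a little more numerous in these genes, with a median of 4 per gene against 3 for all protein-coding genes, although the median length of promoter sequence was similar, at 4015 and 4002 bp. With only the 5′-most start site of each gene, the counts were 10, 11, 14 and 9 of 31 from GFP mock to Cre DOX, or 32.3%, 35.5%, 45.2% and 29.0%, against 23.3%, 19.6%, 28.0% and 20.1% of all protein-coding genes. No interval was computed for these shares. When the genes were split by the GC content of the promoter, 7 of 12 genes at or above 55% had a Cre mock promoter peak, against 66.4% of all such genes. Below 55% the number was 11 of 19, against 24.1% of all such genes. This lower class was not matched in GC content. Its lowest promoter was at 44.2% in the 31 genes and at 26.0% among all protein-coding genes, and the part of GC content within the class was not tested. For GFP mock the counts were 6 of 12 against 58.6%, and 6 of 19 against 19.0%. For GFP DOX they were 8 of 12 against 51.3%, and 4 of 19 against 15.1%, and for Cre DOX 6 of 12 against 49.1%, and 6 of 19 against 18.5%.

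**Figure D2:**
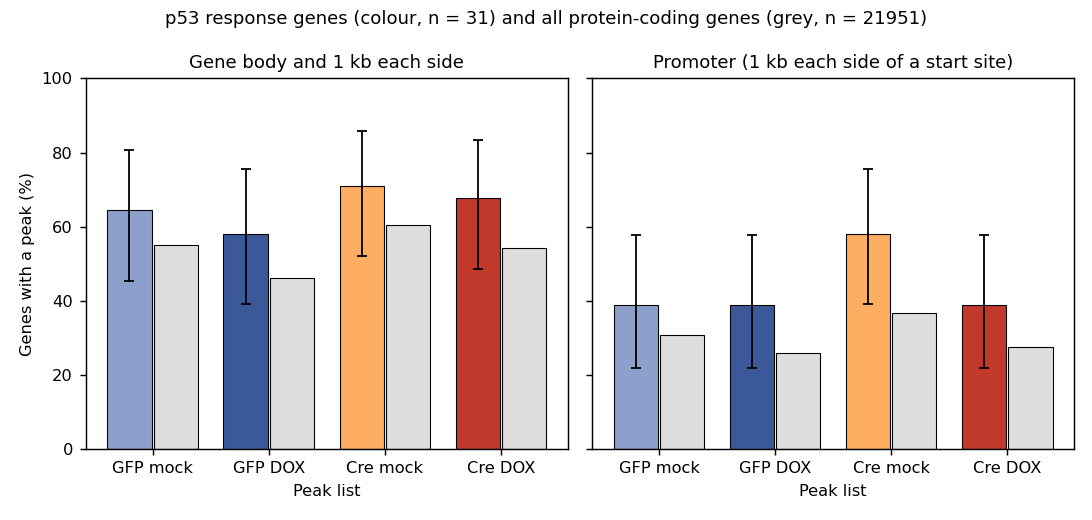
Share of genes with a peak in the extended body (left) and in a promoter (right), in percent, for the 31 p53 response genes (coloured bars, with 95% exact Clopper-Pearson intervals covering counting error only) and all 21951 protein-coding genes (grey bars) in each of the 4 peak lists. In Cre mock the promoter share was 58.1% for the p53 response genes and 36.7% for all protein-coding genes. The intervals do not compare lists, since the same 31 genes were scored in each.

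A promoter peak was present in all 4 lists at 6 genes, or 19.4%, against 13.5% of all protein-coding genes, and in none at 7 genes, or 22.6%, against 49.6%. The 6 were *Trp53*, *Mdm2*, *Bbc3*, *Phlda3*, *Tnfrsf10b* and *Cdkn2a*, and the 7 were *Ccng1*, *Pmaip1*, *Perp*, *Fas*, *Eda2r*, *Ckap2* and *Sertad1*. The study looked for promoters with a peak after *Rtel1* deletion that was absent from control cells and from deleted cells with RNaseH1, and considered only peaks whose score was in the top decile of its sample. Under that limit the pattern was found at *Mdm4* and *Zmat3*, which are 2 genes or 6.45% (exact 95% interval 0.791% to 21.4%), against 3.88% of all protein-coding genes. With peaks of any score, the pattern, in Cre mock and in neither GFP mock nor Cre DOX, was seen at *Trp53inp1*, *Sesn1*, *Zmat3*, *Xpc*, *Rrm2b* and *Pml*, which are 6 genes or 19.4% (7.45% to 37.5%), against 8.50% of all protein-coding genes. The mirror pattern, in GFP mock and in neither Cre mock nor GFP DOX, was seen at *Btg2*, *Ddb2* and *Ppm1d*, which are 3 genes or 9.68% (2.04% to 25.8%), against 5.99%. Over the extended body the first pattern was found at *Trp53inp1*, *Zmat3* and *Xpc*, which are 3 genes or 9.68% (2.04% to 25.8%), against 6.56%. Each of these exact 95% intervals held the share of all protein-coding genes.

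The scores of the peaks at these genes were ranked within their own list. The top decile of each list gave a peak in the extended body at 4 genes in GFP mock and 1 in GFP DOX, and 4 in Cre mock and 3 in Cre DOX, against 13.1%, 9.92%, 16.7% and 9.91% of all protein-coding genes, or 12.9%, 3.23%, 12.9% and 9.68% of the 31. In promoters the counts were 1, 1, 3 and 2 genes, or 3.23%, 3.23%, 9.68% and 6.45%, against 4.38%, 3.84%, 6.70% and 3.13%. The exact 95% intervals of the body shares (3.63% to 29.8%, 0.0816% to 16.7%, 3.63% to 29.8% and 2.04% to 25.8%) and of the promoter shares (0.0816% to 16.7% in both GFP lists, 2.04% to 25.8% in Cre mock and 0.791% to 21.4% in Cre DOX) all held the background, so no difference from all protein-coding genes was detectable with 31 genes. Of the 173 entries of a peak at a gene over the 4 lists, 12 were in the top decile of their list. The median entry had a score above 51.9% of its list in GFP mock and 41.2% in GFP DOX, and 47.4% in Cre mock and 23.1% in Cre DOX. Over all protein-coding genes these medians were 45.7%, 41.2%, 47.4% and 42.0%, so the entries at the 31 genes ranked lower in Cre DOX, higher in GFP mock and the same in the remaining lists.

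**Figure D3:**
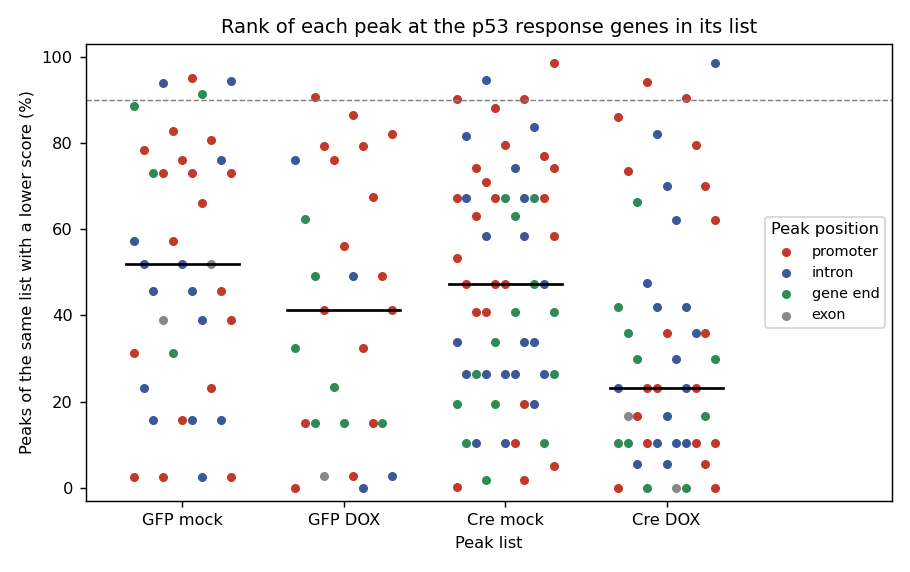
Rank of every peak at the 31 p53 response genes, as the percentage of peaks of the same list with a lower score, by peak list and coloured by position (promoter, intron, gene end or exon). Black bars are medians, at 51.9%, 41.2%, 47.4% and 23.1% from left to right, and the dashed line is at 90%, above which 12 entries lie.

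By number, the genes carried 38 peaks in GFP mock and 28 in GFP DOX, and 59 in Cre mock and 48 in Cre DOX. Per megabase of extended body this was 43.3, 31.9, 67.3 and 54.7 peaks, against 31.9, 23.9, 41.0 and 33.5 for all protein-coding genes. Median width was 344, 571, 381 and 502 bp, against 285, 343, 349 and 466 bp for all protein-coding genes. The peaks at the 31 genes covered 2.08%, 3.23%, 5.12% and 5.19% of the examined sequence. There GFP DOX had the fewest peaks but covered more sequence than GFP mock, since its peaks were wider. For all protein-coding genes the peak widths added up to 13879 kb in GFP mock and 13960 kb in GFP DOX. Promoters took 47.4%, 57.1%, 42.4% and 39.6% of the entries at the 31 genes, against 25.6%, 30.0%, 27.0% and 22.5% for all protein-coding genes. Joined across lists, the peaks formed 99 separate regions, of which 68 were seen in 1 list only and 8 in all 4, and 29 of the 68 were in Cre mock and 24 in Cre DOX. Regions of a single list made up 68.7% of the 99, against 69.9% of the 92173 regions formed in the same way at all protein-coding genes, and those of Cre mock alone 29.3% against 25.1%, of Cre DOX alone 24.2% against 19.0% and of all 4 lists 8.08% against 7.25%. Those of GFP mock alone made up 10.1% against 16.9%, of GFP DOX alone 5.05% against 8.85% and of 3 lists 4.04% against 7.62%. The shares of all single-list regions together and of all 4 lists were close to the background, and no difference was tested. Of the GFP mock peaks at the 31 genes 60.5% overlapped a Cre mock peak, against 40.2% of those at all protein-coding genes, whereas in the other direction the share was 27.1% against 29.0%. From Cre mock to Cre DOX it was 32.2% against 34.7%.

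p53 and its regulators are encoded by 6 of the genes. Of these, 5, 3, 5 and 3 had a promoter peak in GFP (mock, DOX) and Cre (mock, DOX) cells, to be set beside the 30.8%, 25.8%, 36.7% and 27.6% of all protein-coding genes, and together they carried 16, 10, 23 and 17 peaks. *Trp53* itself (chr11:69580359-69591873, plus strand) had 6 peaks in GFP mock and 4 in GFP DOX, and 3 in Cre mock and 3 in Cre DOX. Its fewest peaks were thus in the Cre lists, although the widest single peak of each Cre list was wider than any GFP peak there, and 15.7%, 38.6%, 66.3% and 43.0% of its extended body lay under a peak in that order. One Cre mock peak of 7101 bp (chr11:69583333-69590433, score 26, 3.9-fold enrichment) ran from the first intron into the ninth intron of the coding transcript with the longest span, and a Cre DOX peak of 5254 bp (chr11:69583497-69588750, score 29, 3.71-fold) ran from the first intron into the sixth. Over the stretch of that Cre mock peak, GFP mock had peaks of 634, 370, 470, 254 and 284 bp with scores of 13 to 25, and GFP DOX had peaks of 2542, 770 and 1221 bp with scores of 22, 24 and 12, the last of which ran past its end.

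The intronic part of *Trp53* shared by all 4 lists began 3174 bp after its nearest annotated start site, well inside the first intron. At the 5′ start itself a peak was listed in Cre mock only (chr11:69580278-69581033, score 18, 3.44-fold), and GFP mock had a peak of 106 bp that ended at −666 bp from it (score 22, 3.83-fold). The other promoter entries of *Trp53* lay at a start site 8336 bp downstream. The upstream peak also lay over *Wrap53*, a gene that starts within 1 kb on the other strand, and DRIP without strand information does not assign a hybrid to either gene.

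*Mdm2*, which encodes the ligase that marks p53 for degradation, had 3, 2, 3 and 4 peaks in the 4 lists, and a peak over its 5′ start in every list. Those peaks had scores of 17, 26, 23 and 24. They met in only 55 bp (chr10:117710753-117710807), since the GFP mock peak of 1134 bp extended into the gene while the GFP DOX peak of 924 bp and the Cre mock peak of 1093 bp extended upstream. The Cre DOX peak of 4032 bp spanned both sides. All 4 overlapped the restriction fragment of 2504 bp that holds the start, with the Cre mock peak reaching past an end of it and the Cre DOX peak past both.

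*Mdm4*, whose product binds p53 and blocks its activity, held the highest-scoring Cre mock peak of the gene list (chr1:133025149-133025707, 559 bp, score 67, 5.97-fold, above 98.6% of that list). It covered a group of start sites 5145 to 5231 bp downstream of the 5′ start. Neither GFP list nor Cre DOX had a peak overlapping it. A GFP mock peak within 1 kb of a further start site, 990 bp away and with a score of 14, kept *Mdm4* out of the Cre mock pattern above. Over the extended body the gene had 3, 1, 3 and 4 peaks across the lists in the order given, none of them in all 4 lists.

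*Cdkn2a*, which encodes the Cdk inhibitor p16INK4a and the Mdm2 inhibitor p19ARF, had 1 peak in GFP mock and 1 in GFP DOX, and 5 in Cre mock and 2 in Cre DOX. Every list covered a stretch of 559 bp upstream of its 5′ start, with peaks of 948, 1455, 2360 and 2076 bp and scores of 18, 20, 23 and 23. Cre mock and Cre DOX each had a further peak near the second start site, 12461 bp downstream, which neither GFP list had.

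*Pml*, the scaffold of nuclear bodies that engage p53, had 2 peaks in GFP mock and 2 in GFP DOX, and 8 in Cre mock and 4 in Cre DOX. That Cre mock count was the highest of any gene and list, but the scores there were 13 to 23, none in the top decile, and its 2 promoter entries were at −838 and 418 bp from start sites in the middle of the gene and not at its 5′ end. *Ppm1d*, the phosphatase that switches the response off, had 1 peak in GFP mock and 1 in Cre mock, and 0 in both DOX lists. The GFP mock peak was the highest-scoring one at these genes in that list (chr11:85312202-85312307, 106 bp, score 42, 4.91-fold) and lay 38 bp after a start site, whereas the Cre mock peak lay past the gene end.

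**Figure D4:**
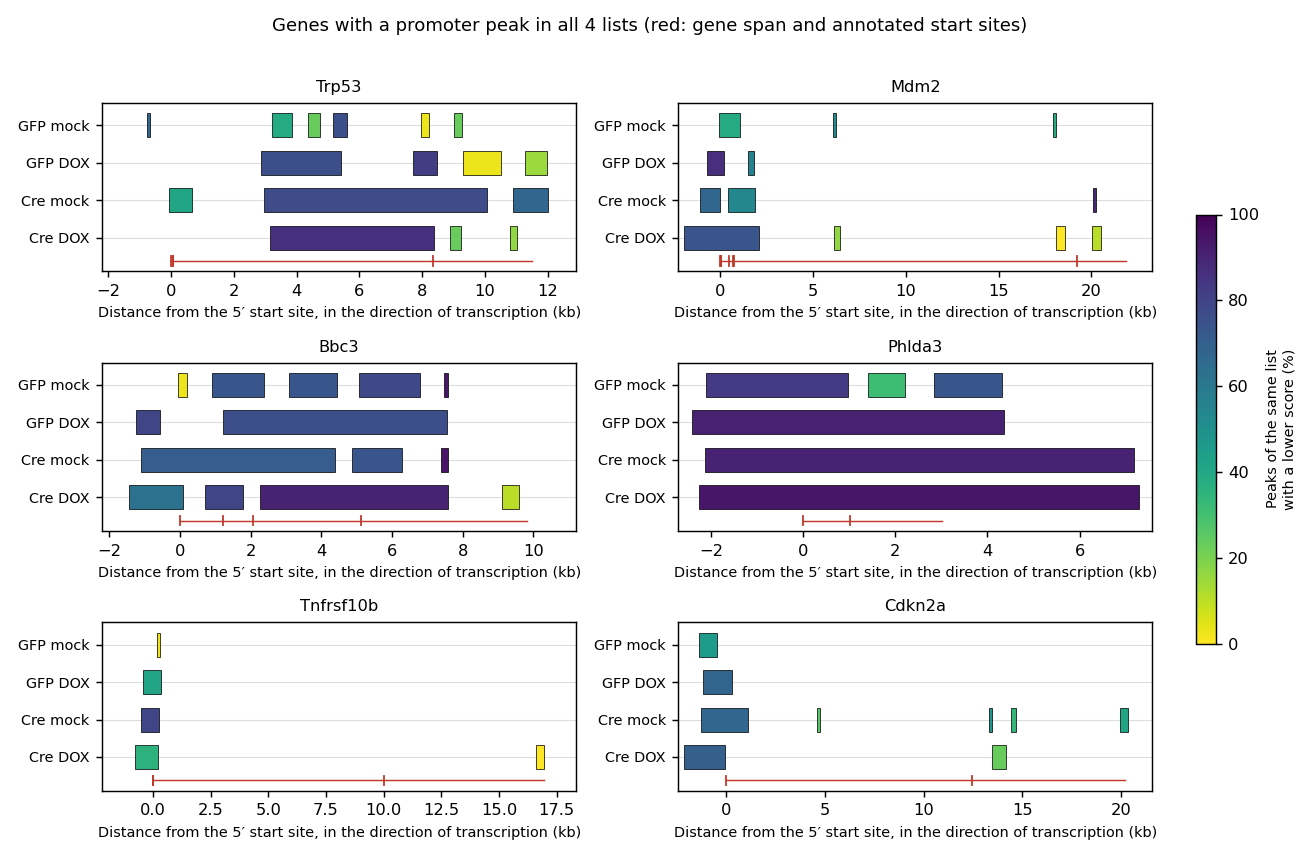
Peaks of the 4 lists (boxes, to scale) at the 6 genes with a promoter peak in every list, against distance from the 5′ start site in kb, with the gene span and annotated start sites in red below. Colour gives the percentage of peaks of the same list with a lower score. *Phlda3* was covered from end to end in every list but GFP mock, and the *Trp53* peaks common to all lists sit inside the gene.

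Among the 9 genes of cell cycle and growth arrest, 3, 3, 4 and 2 had a promoter peak from GFP mock to Cre DOX, each within 1 gene of what the background of 30.8%, 25.8%, 36.7% and 27.6% gives for 9 genes. A peak anywhere in the extended body was found at 6, 4, 4 and 5 of them, beside 55.0%, 46.0%, 60.4% and 54.1% of all protein-coding genes. *Cdkn1a*, which encodes the Cdk inhibitor p21 and is the best known p53 target, had 1, 0, 2 and 2 peaks. The GFP mock peak (chr17:29094648-29095058, score 20, 3.38-fold) and a Cre mock peak (chr17:29094466-29094683, score 14, 2.84-fold) overlapped each other in the first intron, after an internal start site. Near the 5′ start of *Cdkn1a* a peak was listed only in Cre DOX, at −537 bp and 72.8% repeat-masked, with a score of 16. The match to the p53 site printed above, centred at −39 bp from a start site, was under none of these.

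The sestrins, which restrain growth signalling under stress, differed. *Sesn1* had 1, 1, 2 and 1 peaks in GFP (mock, DOX) and Cre (mock, DOX) cells. An intronic stretch of 415 bp, 47998 bp into the gene and 100% repeat-masked, was covered in every list with scores of 18, 17, 25 and 27, and a peak 217 bp after the start was listed in Cre mock only (score 19, 3.56-fold, 381 bp). *Sesn2* had 1, 2, 3 and 3 peaks, with promoter peaks in every list but GFP mock and a top-decile intronic peak of 158 bp in GFP mock (score 40, 4.80-fold). Of the *Sesn2* promoter peaks only that of Cre DOX covered the start site.

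*Zmat3*, which encodes an RNA-binding protein, had 0, 1, 2 and 0 peaks in the 4 lists. Its Cre mock promoter peak (chr3:32365518-32365682, 165 bp, score 34, 4.12-fold) was in the top decile and overlapped a GFP DOX peak of 347 bp with the lowest score in that list, 10. *Gadd45a*, a stress sensor, had 1 promoter peak in each GFP list, with scores of 27 and 16 and within 42 bp of a start site, and 0 in both Cre lists. *Btg2*, an antiproliferative factor, had 1 promoter peak in GFP mock (score 24) and an exonic peak in Cre DOX (score 13). *Ccng1*, which encodes cyclin G1, and *Sertad1*, a regulator of E2F activity, had 1 peak each, in GFP mock and in Cre DOX, both past the gene end, and *Ckap2* had none.

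Of the 12 cell death genes, 3, 4, 6 and 6 had a promoter peak across the lists in the order given, beside a background of 30.8%, 25.8%, 36.7% and 27.6%. The GFP mock count was thus below its background and those of the other lists above theirs, and no difference was tested with 12 genes. *Bbc3*, which encodes the BH3-only protein PUMA, had 5, 2, 3 and 4 peaks, and 42.0%, 57.4%, 59.3% and 67.8% of its extended body lay under them. Here too fewer peaks did not mean less covered sequence, since GFP DOX joined into 1 peak of 6353 bp what GFP mock held as 4. A short intronic peak in the third intron (chr7:16315853-16315974 in GFP mock, 122 bp) was in the top decile in GFP mock and Cre mock, with scores of 39 and 41 and 4.88- and 4.86-fold enrichment. The same bases lay at the end of wider peaks in GFP DOX (score 22) and Cre DOX (score 32).

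*Phlda3*, a repressor of Akt signalling, was the most fully covered gene. Its extended body of 5018 bp lay under a peak over 79.1% of its length in GFP mock and over all of it in the other lists. The peaks there were 6767, 9329 and 9530 bp wide in GFP DOX and the Cre lists (mock, DOX), with scores of 29, 34 and 36, each in the top decile of its list. GFP mock had 3 peaks, of 3082, 813 and 1457 bp, with scores of 28, 16 and 24. The printed *Phlda3* sequence ends 1 base before the start site.

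*Tnfrsf10b*, a death receptor for TRAIL, had a peak across or close after its 5′ start in each list, with scores of 13, 16, 27 and 16 from GFP mock to Cre DOX. All 4 met in 58 bp (chr14:69767626-69767683), and the GFP mock peak of 169 bp was the narrowest of the set. *Fas*, the other death receptor with peaks, had 1, 0, 3 and 2 peaks, none in a promoter, and most were in repeat-masked sequence of its eighth intron. *Bax*, the pore-forming effector, had 0, 1, 0 and 3 peaks, so both DOX lists and neither mock list had one, with scores of 10 to 17.

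*Aen*, a nuclease induced by p53, had 1, 4, 6 and 3 peaks in GFP (mock, DOX) and Cre (mock, DOX) cells, and 12 of these 14 entries lay around annotated transcript ends. The GFP mock peak was short and in the top decile (chr7:78905617-78905722, 106 bp, score 35, 4.71-fold). *Aen* promoter peaks were listed in Cre mock (score 25) and Cre DOX (score 11) at internal start sites. *Ei24* had 1 promoter peak in each Cre list, with scores of 11 and 13, at places that did not overlap, and none in a GFP list. *Trp53inp1* had a promoter peak in Cre mock alone (score 12, 2.98-fold), near the bottom of that list, and *Apaf1*, the core of the apoptosome, had one in GFP DOX alone (score 23, 4.02-fold, 129 bp), although *Ikbip* also starts within 1 kb of it. *Pmaip1*, which encodes Noxa, the membrane protein gene *Perp* and the receptor gene *Eda2r* had no peak in any list.

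The 4 genes of DNA repair and nucleotide supply had a promoter peak in 1, 2, 3 and 1 cases in the 4 lists, too few genes to set apart from the background of 30.8%, 25.8%, 36.7% and 27.6%. *Xpc*, which recognises distorted DNA in nucleotide excision repair, had 0, 1, 4 and 0 peaks. Its Cre mock promoter peak (chr6:91515458-91516074, 617 bp, score 15, 3.24-fold) covered the start and overlapped a GFP DOX peak of 152 bp with a score of 13, and *Lsm3* starts within 1 kb of it. *Ddb2*, another damage sensor of that pathway, had 2, 0, 1 and 3 peaks, with its only promoter peak in GFP mock (score 25, 115 bp).

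*Rrm2b*, which encodes the p53-induced subunit of ribonucleotide reductase, had 2, 0, 2 and 1 peaks. Its promoter peak was in Cre mock only (chr15:37960940-37961086, 147 bp, score 23, 3.42-fold), at −11 bp from a start site. The Cre DOX peak, in the fifth intron, had a score of 50 (4.67-fold, above 98.5% of that list), and overlapped a GFP mock peak with a score of 14 in the same repeat. *Polk*, a translesion polymerase, had 0, 1, 2 and 2 peaks and a promoter peak in every list but GFP mock, with scores of 17, 18 and 12. *Col4a3bp* starts close by on the other strand, and the Cre mock peak lay upstream of *Polk*, on the side of that gene.

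**Figure D5:**
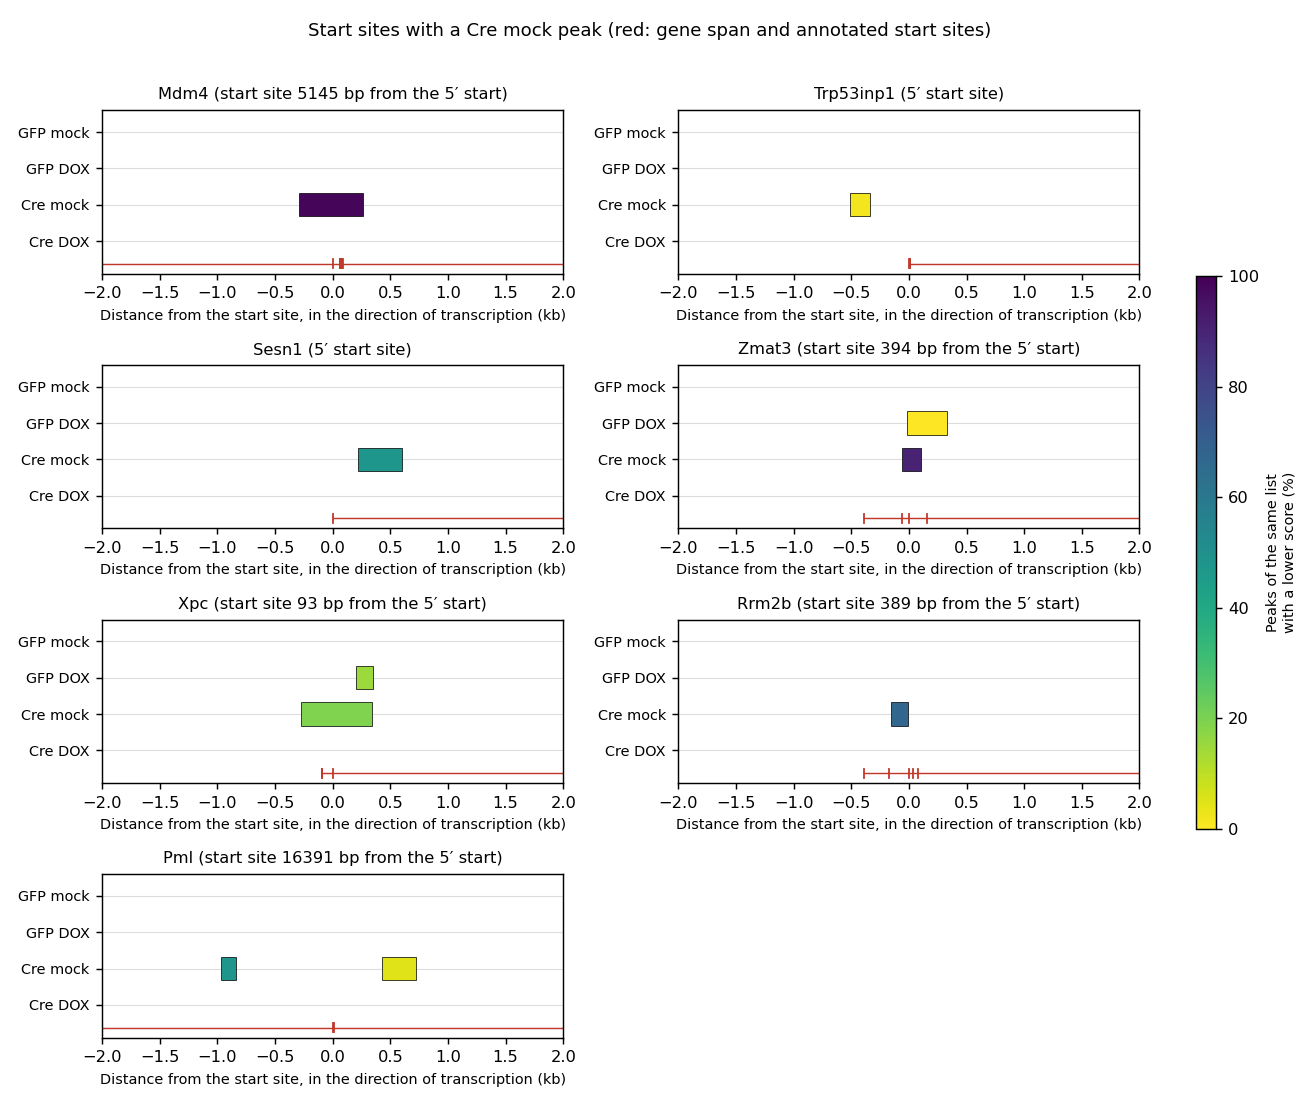
Peaks within 2 kb of a start site at the 6 genes with a promoter peak in Cre mock and in neither GFP mock nor Cre DOX, and at *Mdm4*, against distance from that start site in kb (boxes to scale, gene span and start sites in red, colour as the percentage of peaks of the same list with a lower score). *Zmat3* and *Xpc* also have a GFP DOX peak there, and the Cre mock ranks run from 1.89% at *Trp53inp1* to 98.6% at *Mdm4*.

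The Cre mock pattern at promoters was thus made of peaks of very different strength. Within Cre mock the promoter peaks ranked above 1.89% of the list at *Trp53inp1*, 19.4% at *Xpc*, 47.4% at *Sesn1*, 67.3% at *Rrm2b* and 90.3% at *Zmat3*, and above 4.96% and 47.4% at the 2 sites of *Pml*. The lists hold no signal below the calling threshold, so how far below it the other libraries lay at these sites is not known. With peaks of the top decile alone, *Zmat3* was the only one of the 6 with the pattern. In all, 11 of the 31 genes had the start of another gene within 1 kb, among them *Sesn1*, *Xpc* and *Rrm2b* of the 6.

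Switching doxycycline on was set beside its absence within each genotype. In GFP cells, 7 genes had a promoter peak in both lists, 5 in mock only (*Cdkn1a*, *Mdm4*, *Btg2*, *Ddb2* and *Ppm1d*) and 5 in DOX only (*Sesn2*, *Zmat3*, *Polk*, *Xpc* and *Apaf1*). In Cre cells, 11 had one in both lists, 7 in mock only (*Mdm4*, *Trp53inp1*, *Sesn1*, *Zmat3*, *Xpc*, *Rrm2b* and *Pml*) and 1 in DOX only (*Bax*). The share of mock promoters without a DOX peak was 41.7% in GFP cells and 38.9% in Cre cells, against 39.6% and 41.2% of all protein-coding genes. The share of DOX promoters without a mock peak was 41.7% (5 of 12 genes) and 8.33% (1 of 12), against 28.1% and 21.9%. Both mock shares were near the background, and no difference of the DOX shares from it was tested.

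Between genotypes without doxycycline, 8 genes had a promoter peak in both mock lists, 4 in GFP mock only (*Gadd45a*, *Btg2*, *Ddb2* and *Ppm1d*) and 10 in Cre mock only (*Trp53inp1*, *Sesn1*, *Sesn2*, *Zmat3*, *Ei24*, *Aen*, *Polk*, *Xpc*, *Rrm2b* and *Pml*). Of the Cre mock promoters, 55.6% (10 of 18) lacked a GFP mock peak, against 37.4% of all protein-coding genes. Of the GFP mock promoters 33.3% (4 of 12) lacked a Cre mock peak, against 25.4%. A difference of these shares from the background was not tested. With doxycycline, 8 genes had a promoter peak in both lists, 4 in GFP DOX only and 4 in Cre DOX only. Of the promoters in either list 33.3% thus lacked a peak in the other, near the 32.1% (GFP DOX) and 36.4% (Cre DOX) of all protein-coding genes. The comparisons that use Cre mock share that library, and each was described on its own.

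The wider pathway was described with a second list of 76 genes, of which 74 were matched. They comprise 21 genes that act upstream of p53 or as its partners and 53 further genes of the pathway. The latter include target genes and the long non-coding RNA gene *Trp53cor1*. In that list 55, 50, 62 and 55 genes had a peak in the extended body across the lists in the order given, or 74.3%, 67.6%, 83.8% and 74.3%, against 55.0%, 46.0%, 60.4% and 54.1% of all protein-coding genes. In promoters 39, 33, 48 and 32 had one, or 52.7%, 44.6%, 64.9% and 43.2%, against 30.8%, 25.8%, 36.7% and 27.6%. Cre mock was the highest of the 4 libraries, as it was over all protein-coding genes. Among the further genes 26, 22, 36 and 20 of 53 had a promoter peak, or 49.1%, 41.5%, 67.9% and 37.7%. For the upstream genes the counts were 13, 11, 12 and 12 of 21, or 61.9%, 52.4%, 57.1% and 57.1%. Both groups were above the share of all protein-coding genes in each library, and a difference between the groups was not tested.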

How the data were processed

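DRIP-seq was carried out in MEFs in 4 conditions with 1 library each, pooled from 3 immunoprecipitations. The authors digested DNA with 5 restriction enzymes and processed single-end reads with the pipeline nf-core/chipseq (Trim Galore, BWA on mm10, MACS2 for each library). The command they give names narrow peaks, but the deposited lists are in broad-peak format. Whether inputs served as control is not stated. The deposited score, the deposited fold enrichment (a ratio to local background) and the deposited −log10 values of p and q come from the peak caller, are not normalised between libraries, and were used within a list only. Broad calling and depth change how many peaks a stretch is split into.

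All peaks were overlapped (at least 1 bp) with GENCODE M21 genes, matched by symbol, and sequence was read from GRCm38.p6 with pysam 0.24.0. Groups follow the sample labels. Intervals are exact (Clopper-Pearson, 95%, scipy) and cover counting error only. All 31 genes were accounted for. Those with a promoter peak or a top-decile peak, and *Trp53*, were described in full. The genes, their roles and the second list were chosen with earlier results of these data known. Alternatives changed the score, q-value, width, number and masking of peaks, and the body and promoter windows. Overlap and motif searches were tested on simulated data. Printed sequences leave out untranslated exon sequence.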

Additional observations from a re-analysis of the deposited data

Results flagged for a closer look

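At 9 genes the number of peaks in the extended body moved in opposite directions with doxycycline in GFP cells and in Cre cells, taken as DOX minus mock. The difference between genotypes was not tested, since each value rests on 1 library per condition. The change was −1 in GFP cells and 1 in Cre cells for *Mdm2*, −2 and 1 for *Mdm4*, and −3 and 1 for *Bbc3*. It was −1 and 1 for *Btg2* and −2 and 2 for *Ddb2*. In the other direction it was 1 and −1 for *Trp53inp1*, 1 and −2 for *Zmat3*, 3 and −3 for *Aen*, and 1 and −4 for *Xpc*. These were 29.0% of the 31 genes, against 18.4% of all protein-coding genes, a smaller share of which had a peak in each list. The number of peaks also depends on how a stretch is split, and *Bbc3* did not move in opposite directions in covered length, with 1813 bp more in GFP cells and 1008 bp more in Cre cells. In covered length 13 of the 31 genes, or 41.9%, moved in opposite directions, against 29.8% of all protein-coding genes.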

How the results depend on the processing

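Of 82 values of the 9 counts under other settings, 63 stayed within 1.5 times the main count and 19 did not. With the top decile of each list the body counts were 4 and 1 genes in GFP cells (mock, DOX) and 4 and 3 in Cre cells, the promoter counts were 1 and 1, and 3 and 2, and the Cre mock promoter pattern was left at 2 genes. A −log10 q-value of at least 2 gave body counts of 12 and 6 in GFP cells (mock, DOX) and 10 in Cre DOX, and the GFP DOX body share (19.4%) then lay below that of all protein-coding genes (24.2%). It gave promoter counts of 6 in GFP DOX, with 11 and 5 in Cre cells (mock, DOX). Peaks at least 250 bp wide gave 13 body and 7 promoter genes in GFP mock. Equal numbers of peaks per list (60219) gave 13 body and 5 promoter genes in Cre DOX, and that promoter share (16.1%) was near the 16.8% of all protein-coding genes. Each of these settings keeps fewer peaks. Cre mock had the most promoter genes in every setting, whereas for bodies Cre DOX led without the extension of 1 kb (20 genes) and 3 lists were equal at 18 with equal numbers of peaks. The genes with the Cre mock promoter pattern changed. With the q-value limit there were again 6, but they were *Mdm4*, *Sesn2*, *Tnfrsf10b*, *Zmat3*, *Aen* and *Rrm2b*. Wide peaks gave 4 (*Sesn1*, *Ei24*, *Xpc* and *Pml*), and equal numbers gave 9, without *Trp53inp1* and *Xpc*. No paired analysis was possible because each group has 1 library and no result comes from a test between groups. Depth is unknown, there is no replicate error, and a peak absent from a list is not shown to lack signal.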
